A study of Brassica napus with 22 samples.

Results

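Nuclear genes for subunits of photosystem I and photosystem II were followed across the globular-stage seed of oilseed rape (Brassica napus). The genes were taken from a list of 19 Arabidopsis loci, 8 for photosystem II and 11 for photosystem I. For photosystem II these were PSBO1 (AT5G66570), PSBO2 (AT3G50820), PSBP1 (AT1G06680), PSBQA (AT4G21280), PSBQ2 (AT4G05180), PSBR (AT1G79040), PSBW (AT2G30570) and PSBY (AT1G67740). For photosystem I they were PSAD1 (AT4G02770), PSAD2 (AT1G03130), PSAE1 (AT4G28750), PSAF (AT1G31330), PSAG (AT1G55670), PSAH1 (AT3G16140), PSAH2 (AT1G52230), PSAK (AT1G30380), PSAL (AT4G12800), PSAN (AT5G64040) and PSAO (AT1G08380). Every row of the deposited expression table whose best Arabidopsis match was 1 of these loci was kept, which gave 95 copies of 101040 genes. Of these, 50 copies belonged to photosystem I and 45 to photosystem II. PSAD2 was the best match of no row, so 18 loci had a copy. Each copy carries the symbol of its Arabidopsis match, and roles given below are those known from Arabidopsis and other model plants.

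Cultivar Topas plants were grown under long days, and all groups share this cultivar and the globular stage. The filial compartments, which arise from fertilisation, were the embryo proper, micropylar endosperm, peripheral endosperm and chalazal endosperm. The maternal compartments were the chalazal proliferating tissue, inner seed coat and outer seed coat. Whole seeds made up the last group. Their label gives a maternal tissue source, although a whole seed also holds filial tissue. The labels list 22 libraries: 2 of embryo proper, 4 of micropylar endosperm, 2 of peripheral endosperm, 3 of chalazal endosperm, 3 of chalazal proliferating tissue, 3 of inner seed coat, 2 of outer seed coat and 3 of whole seed.

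Photosystem II uses light to take electrons from water, and photosystem I uses light again to pass them on to ferredoxin. The reaction-centre cores are encoded in the plastid genome, while the subunits described here are encoded in the nucleus, made in the cytosol and imported. In photosystem II they include the extrinsic proteins that shield the water-splitting manganese cluster. In photosystem I they dock plastocyanin and ferredoxin or hold the antenna. Developing seeds of oilseed rape are green, and their embryos are known to photosynthesise while they store oil.

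The deposited values were FPKM, that is fragment counts corrected for transcript length and library size, rounded to whole numbers, with 1 combined column per group. No spread between replicates could therefore be computed, no difference was tested, and the sequencing depth behind each value is unknown. To compare sets of columns, log2(FPKM + 1) was averaged within each set and the averages were subtracted. A copy was counted as higher or lower by a rule of size: the difference had to reach 1 log2 unit, that is 2-fold, and the higher set had to average 5 FPKM or more. The log2(FPKM + 1) scale understates the fold of low genes. The rule was applied to the 54278 genes that reached 1 FPKM in 2 or more of the 8 columns, among them 84 of the 95 copies. The 7 comparisons of a compartment with the other 6 reuse the same 7 columns and are not independent. Because the samples were bulk tissue, fewer cells of a type and less RNA per cell cannot be told apart. Many copies of a locus are near-identical homeologs or paralogs, and how fragments that fit several copies were assigned is not given in the sources used here, so sums over the copies of a locus are firmer than values of single copies.

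Marker genes were read in each column as a check of the labels. Embryo markers summed to 822 FPKM in embryo proper, 142 in micropylar endosperm and at most 30 in any other column. In micropylar endosperm the members DRN, FUS3 and WOX2 were listed at 0. Endosperm markers summed to 807 to 1741 FPKM in the 3 endosperm columns and to at most 28 elsewhere. By locus, 4 of the 6 reached 5 FPKM in micropylar endosperm and 3 in each of peripheral and chalazal endosperm. IKU2 was listed at 0 in every column, FWA at 0 in micropylar and chalazal endosperm, and ZOU at 0 in chalazal endosperm. The chalazal endosperm list was highest in chalazal endosperm at 2537, although its member GA2OX6 was listed at 0 there and reached 25 in micropylar endosperm. The seed coat lists followed the labels less closely. Inner seed coat markers summed to 1844 FPKM in chalazal proliferating tissue, 1305 in inner seed coat and 44 in outer seed coat. By locus, 3 of the 6 reached 5 FPKM in inner seed coat, where TT16 carried most of the sum. No copy of BAN, AHA10 or TT8 exceeded 1 FPKM there, while BAN BnaA01g36200D stood at 24 in chalazal proliferating tissue and 34 in whole seed. Outer seed coat markers summed to 278 FPKM in outer seed coat, where MUM2 and PMEI6 were listed at 0, against 898 in inner seed coat and 617 in chalazal proliferating tissue. The list was mixed: its copies of GL2 (12 and 35 FPKM in outer against 1 and 1 in inner seed coat) and the leading TTG2 copies (13 and 48 against 0 and 2) followed the label, while MYB61 and SBT1.7 carried the inner seed coat sum. Genes of the dying nucellus summed to 38191 FPKM in inner seed coat, nearly all from a pair of DVPE copies, and to 4021 in whole seed. By locus, 2 of the 4 reached 5 FPKM in inner seed coat, where no BFN1 or BVPE copy exceeded 4. In chalazal proliferating tissue, where the list summed to 3237 FPKM, 4 of 4 did. Endosperm markers summed to 4 FPKM in whole seed.

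The photosystem subunits were highest in peripheral endosperm and lowest in inner seed coat. Summed over all 95 copies, the level was 1590 FPKM in embryo proper, 8544 in micropylar endosperm, 14187 in peripheral endosperm, 4641 in chalazal endosperm, 6435 in chalazal proliferating tissue, 685 in inner seed coat, 3117 in outer seed coat and 2971 in whole seed. The peripheral endosperm thus stood 1.66-fold above the micropylar endosperm, 8.92-fold above the embryo proper and 20.7-fold above the inner seed coat. As a share of all FPKM in the column, the subunits made up 1.03% of the peripheral endosperm, 0.551% of the micropylar endosperm, 0.523% of the chalazal proliferating tissue, 0.203% of the chalazal endosperm, 0.162% of the embryo proper and 0.0724% of the inner seed coat. The outer seed coat held 0.410% and the whole seed 0.453%. With rRNA and organelle genes left out of the column total, the share was 1.16% in peripheral endosperm and 0.873% in micropylar endosperm. It was then 0.550% in chalazal proliferating tissue, 0.442% in outer seed coat and 0.212% in chalazal endosperm. The embryo proper held 0.193%, the inner seed coat 0.0789% and the whole seed 0.453% on that basis. The peripheral endosperm was highest, the inner seed coat lowest and the embryo proper next to lowest under each of the 3 other scalings of the columns that were tried. The places between them moved: scaling to a common median put the chalazal proliferating tissue above the micropylar endosperm, and rescaling to a common sum put the outer seed coat above the chalazal endosperm.

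**Figure D1:**
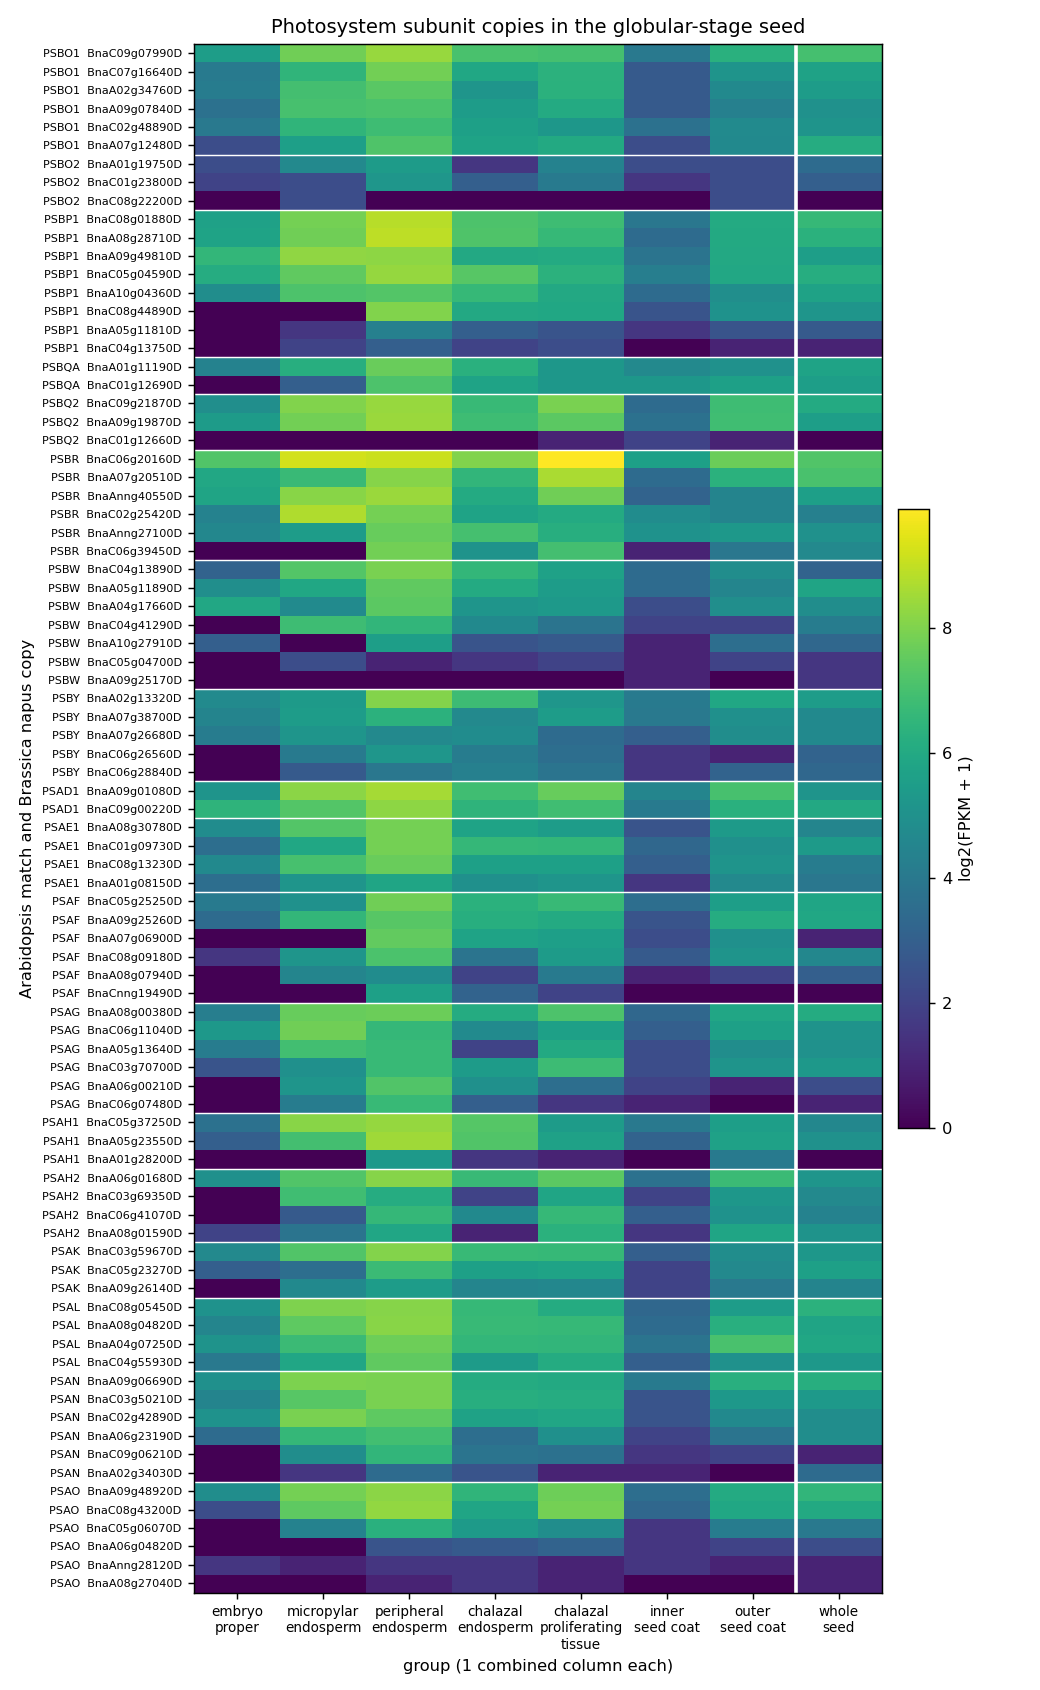
Level of each of the 84 compared photosystem copies as log2(FPKM + 1) by colour, with copies as rows grouped by locus and the 7 compartments and the whole seed as columns, 1 combined column per group. The peripheral endosperm column is the brightest for 62 copies, and the inner seed coat column is dark throughout, with no copy at 100 FPKM or more.

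Most single copies followed the sum. Of the 84 compared copies, 62 (73.8%) had their highest value in peripheral endosperm, 10 in micropylar endosperm, 6 in chalazal proliferating tissue, 2 in chalazal endosperm and 2 in inner seed coat, and 2 were tied. Among all compared genes 9.64% were highest in peripheral endosperm. The median compared copy stood at 160.5 FPKM in peripheral endosperm, 59 in micropylar endosperm, 51 in chalazal proliferating tissue, 49 in chalazal endosperm, 29.5 in outer seed coat, 11.5 in embryo proper and 6 in inner seed coat. The median of all compared genes lay between 1 and 3 FPKM in every column. Copies at 100 FPKM or more numbered 55 in peripheral endosperm, 36 in micropylar endosperm, 16 in chalazal proliferating tissue, 15 in chalazal endosperm, 6 in outer seed coat, 1 in embryo proper and 0 in inner seed coat. Of the 64 copies that reached 50 FPKM in a compartment, 42 (65.6%) had their lowest value in inner seed coat and 15 in embryo proper, whereas 4.29% of all genes at that level were lowest in inner seed coat. The 3 other scalings left 54 to 72 copies highest in peripheral endosperm.

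In the values given below as a run of 8 numbers, the order is embryo proper, micropylar endosperm, peripheral endosperm, chalazal endosperm, chalazal proliferating tissue, inner seed coat, outer seed coat and whole seed. For each locus the copy with the highest mean over the 7 compartments is given. Positions are those of the deposited table, and the genome build is not given in the sources used here.

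The extrinsic proteins of the water-splitting complex were among the most abundant of the photosystem II subunits. PSBO, the protein that stabilises the manganese cluster, came almost wholly from PSBO1: its copies summed to 1107 FPKM in peripheral endosperm, 690 in micropylar endosperm and 49 in inner seed coat. The leading PSBO1 copy, BnaC09g07990D (chromosome C09, 5079086 to 5080926), was listed at 45, 214, 333, 132, 124, 15, 76 and 126 FPKM. It was highest in peripheral endosperm and lowest in inner seed coat. PSBO2, whose product in Arabidopsis is the minor PSBO form, was low in every column, and its leading copy BnaA01g19750D was listed at 4, 24, 42, 2, 20, 4, 4 and 10 FPKM.

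PSBP1 encodes the next extrinsic protein, which helps to hold calcium and chloride at the cluster. Its 8 copies gave the largest sum of any locus in peripheral endosperm, 1998 FPKM, against 1069 in micropylar endosperm, 675 in chalazal endosperm, 294 in embryo proper and 72 in inner seed coat. The leading copies were the putative homeologs BnaC08g01880D, at 50, 224, 461, 139, 112, 14, 65 and 98 FPKM, and BnaA08g28710D, at 53, 216, 481, 142, 97, 10, 63 and 80 FPKM. The order of the A and the C copy switched from column to column. A further copy, BnaA09g49810D, was listed at 94, 308, 300, 62, 65, 13, 62 and 46 FPKM, so that the micropylar and peripheral endosperm were level. In BnaC08g44890D the micropylar endosperm was listed at 0: its values were 0, 0, 257, 62, 59, 5, 32 and 35 FPKM.

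PSBQ, the third extrinsic protein, is encoded by the paralogs PSBQA and PSBQ2, and both were highest in the peripheral endosperm. The leading PSBQ2 copy BnaC09g21870D was listed at 29, 262, 331, 102, 241, 10, 114 and 66 FPKM, with high values in the chalazal proliferating tissue as well. The leading PSBQA copy BnaA01g11190D was listed at 20, 73, 199, 76, 37, 24, 31 and 52 FPKM. The C copy of PSBQA, BnaC01g12690D, departed from the common profile, at 0, 7, 139, 52, 37, 37, 49 and 46 FPKM. It had the same level in the inner seed coat as in the chalazal proliferating tissue, and its correlation with the mean profile of the copies was the lowest of the 64 at 50 FPKM or more (Pearson r = 0.49 over 7 compartments, a description).

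Of the smaller photosystem II subunits, PSBR was the most abundant and the least confined to the endosperm. PSBR is a thylakoid protein linked to the binding of PSBP. Its 6 copies summed to 1832 FPKM in the chalazal proliferating tissue, 1799 in the peripheral endosperm and 1445 in the micropylar endosperm, and it was the only 1 of the 18 loci whose sum was not highest in the peripheral endosperm. The leading copy BnaC06g20160D (chromosome C06, 22220875 to 22221724) was listed at 149, 598, 551, 263, 956, 49, 202 and 148 FPKM, the highest value of any copy in any column being that in the chalazal proliferating tissue. BnaA07g20510D behaved alike, at 61, 104, 271, 90, 397, 10, 79 and 132 FPKM. BnaC02g25420D was instead highest in the micropylar endosperm, at 20, 417, 224, 53, 66, 27, 21 and 19 FPKM, and BnaC06g39450D was listed at 0 there, at 0, 0, 220, 33, 123, 1, 14 and 24 FPKM. Copies of the same locus thus differed in where they stood highest.

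PSBW and PSBY are small membrane subunits of photosystem II, the former known to help hold photosystem II and its antenna together. PSBW summed to 730 FPKM in peripheral endosperm, 354 in micropylar endosperm and 30 in inner seed coat. Its leading copy BnaC04g13890D was listed at 8, 153, 242, 92, 50, 10, 28 and 8 FPKM, and BnaC04g41290D was highest in micropylar endosperm, at 0, 112, 91, 25, 13, 3, 3 and 17 FPKM. BnaA04g17660D had an unusual level in embryo proper, at 61, 26, 171, 35, 39, 4, 29 and 28 FPKM, above its micropylar endosperm value. PSBY summed to 425 FPKM in peripheral endosperm, 198 in chalazal endosperm and 142 in micropylar endosperm. Its leading copy BnaA02g13320D was listed at 26, 41, 270, 111, 36, 16, 58 and 43 FPKM. The lower PSBY copies were flatter: BnaA07g26680D reached 35 FPKM in micropylar endosperm against 24 in peripheral endosperm, and BnaC06g28840D reached 19 in chalazal endosperm against 14.

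On the stromal side of photosystem I, PSAD and PSAE help ferredoxin to dock. PSAD was represented by rows matched to PSAD1 alone, since PSAD2 was the best match of no row. The 2 PSAD1 copies summed to 680 FPKM in peripheral endosperm, 441 in micropylar endosperm, 121 in embryo proper and 38 in inner seed coat. BnaA09g01080D was listed at 34, 289, 379, 116, 194, 22, 128 and 34 FPKM. The C copy BnaC09g00220D, at 87, 152, 301, 85, 115, 16, 77 and 62 FPKM, was the higher of the pair in embryo proper and the whole seed and the lower elsewhere. PSAE1 summed to 710 FPKM in peripheral endosperm and 23 in inner seed coat, and its leading copy BnaA08g30780D was listed at 27, 150, 228, 52, 43, 5, 41 and 22 FPKM.

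On the lumenal side, PSAF and PSAN take part in the docking of plastocyanin. PSAF stood out most clearly in peripheral endosperm, where its 6 copies summed to 772 FPKM, 2.81-fold above the next compartment, the chalazal proliferating tissue at 275. The micropylar endosperm held 180 FPKM and the embryo proper 28. The leading copy BnaC05g25250D was listed at 16, 31, 218, 79, 102, 11, 46 and 56 FPKM, and BnaA07g06900D at 0, 0, 185, 52, 47, 4, 30 and 1 FPKM. PSAN was closer to even between these endosperm regions, with 871 FPKM in the peripheral and 772 in micropylar endosperm. Its leading copy BnaA09g06690D was listed at 30, 247, 240, 68, 64, 16, 74 and 72 FPKM, and BnaC02g42890D reached 238 FPKM in micropylar endosperm against 173 in peripheral endosperm.

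PSAG and PSAK sit at opposite edges of photosystem I and hold its antenna. PSAG summed to 748 FPKM in the peripheral endosperm, 608 in the micropylar endosperm and 375 in the chalazal proliferating tissue. Its leading copy BnaA08g00380D was listed at 18, 192, 204, 67, 141, 9, 57 and 68 FPKM. The copies differed in place: BnaC06g11040D was highest in the micropylar endosperm, at 38, 215, 96, 26, 49, 7, 48 and 33 FPKM. BnaA05g13640D also was, at 119 against 100 FPKM in the peripheral endosperm, with 3 in the chalazal endosperm. BnaC03g70700D reached 109 FPKM in the chalazal proliferating tissue against 100 in the peripheral endosperm. PSAK summed to 418 FPKM in the peripheral endosperm, 184 in the micropylar endosperm and 13 in the inner seed coat, and its leading copy BnaC03g59670D was listed at 24, 148, 268, 102, 97, 7, 28 and 37 FPKM.

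PSAH, PSAL and PSAO form the side of photosystem I where mobile antenna binds during state transitions. PSAL summed to 942 FPKM in the peripheral endosperm, the highest photosystem I sum in any column, and to 39 in the inner seed coat. Its leading copy BnaC08g05450D was listed at 32, 252, 272, 99, 68, 9, 44 and 81 FPKM. PSAO summed to 691 FPKM in the peripheral endosperm and 477 in the chalazal proliferating tissue, above the 420 of the micropylar endosperm. Its leading copy BnaA09g48920D was listed at 28, 224, 292, 89, 212, 11, 65 and 90 FPKM. BnaA06g04820D, a low PSAO copy, reached 8 FPKM in the chalazal proliferating tissue against 5 in the peripheral endosperm.

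PSAH1 and PSAH2 differed in the maternal tissue beside the chalaza. PSAH1 summed to 716 FPKM in peripheral endosperm, 399 in micropylar endosperm, 307 in chalazal endosperm and 93 in chalazal proliferating tissue. Its leading copy BnaC05g37250D was listed at 12, 278, 321, 156, 42, 15, 46 and 23 FPKM. PSAH2 summed to 492 FPKM in peripheral endosperm, 402 in chalazal proliferating tissue, 282 in micropylar endosperm and 133 in chalazal endosperm. The leading PSAH2 copy BnaA06g01680D was listed at 30, 146, 271, 104, 168, 12, 106 and 35 FPKM. BnaA08g01590D was highest in chalazal proliferating tissue, at 3, 13, 57, 1, 79, 2, 56 and 33 FPKM, as was BnaC06g41070D, at 0, 6, 95, 25, 98, 7, 32 and 20 FPKM. BnaC03g69350D was highest in micropylar endosperm, at 0, 117, 69, 3, 55, 3, 37 and 24 FPKM.

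**Figure D2:**
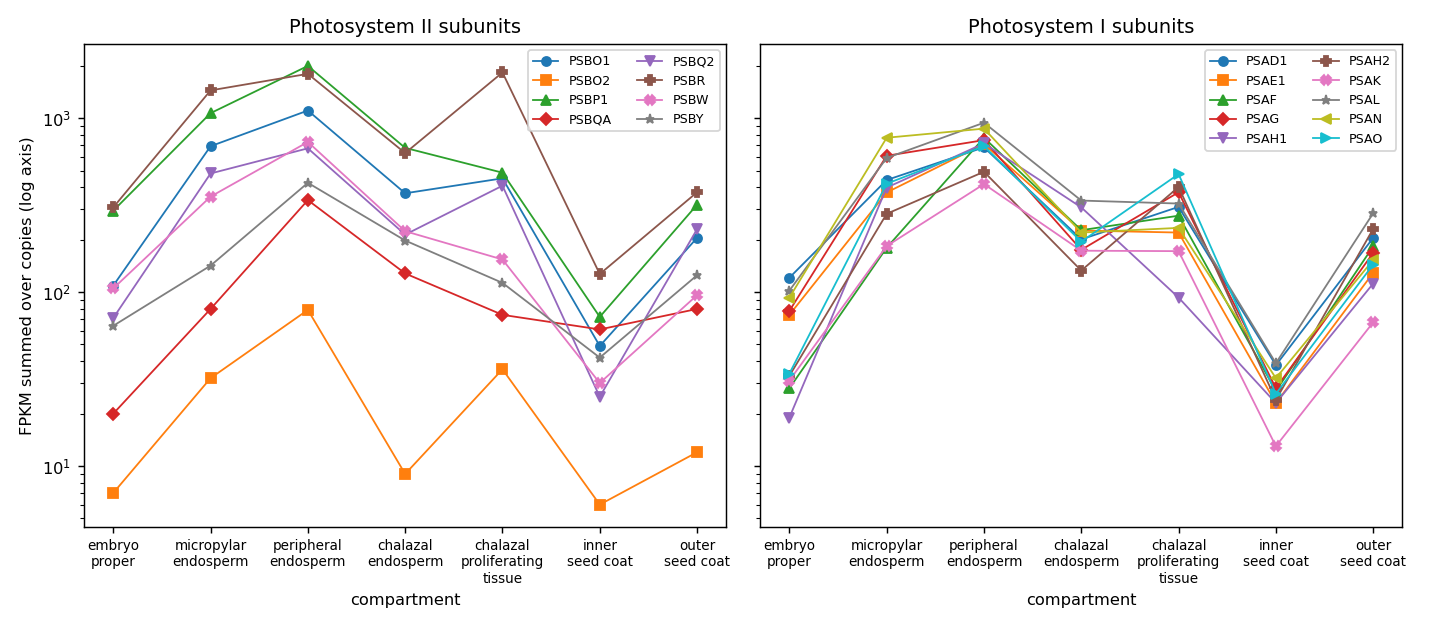
Summed FPKM over the copies of each of the 18 loci on a log axis (photosystem II left, photosystem I right), with 1 point per locus and compartment and lines that join the points of a locus for reading only. The sum peaks in the peripheral endosperm for 17 loci, PSBR being slightly higher in the chalazal proliferating tissue, and has its minimum in the inner seed coat for 16.

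Across the 18 loci the peripheral endosperm was 5.62-fold (PSAD1) to 37.7-fold (PSAH1) above the embryo proper, with a median of 9.59-fold. The next-highest compartment was the micropylar endosperm for 11 loci, and for 4 it was the chalazal proliferating tissue. Lowest of all was the inner seed coat for 16 loci, and for the other 2, PSBQA and PSAH1, the embryo proper was lower, at 20 against 61 FPKM and 19 against 23 FPKM.

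Against the other 6 compartments, the peripheral endosperm was higher by the rule of size for 76 of the 84 compared copies and lower for 0, with a median difference of 2.43 on the log2(FPKM + 1) scale. Of all compared genes 13.7% were higher and 11.4% lower, with a median of -0.06. The count was 41 of 44 for photosystem I and 35 of 40 for photosystem II. The largest differences were those of PSAG BnaC06g07480D (5.03), PSBR BnaC06g39450D (4.96), PSBP1 BnaC08g44890D (4.76), PSAF BnaCnng19490D (4.75) and PSAF BnaA07g06900D (4.44), each of which was listed at 0 in at least 1 other compartment. The smallest were those of copies that stayed below 5 FPKM in every compartment. The count stayed between 74 and 77 under every alternative tried, with columns left out or rescaled.

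**Figure D3:**
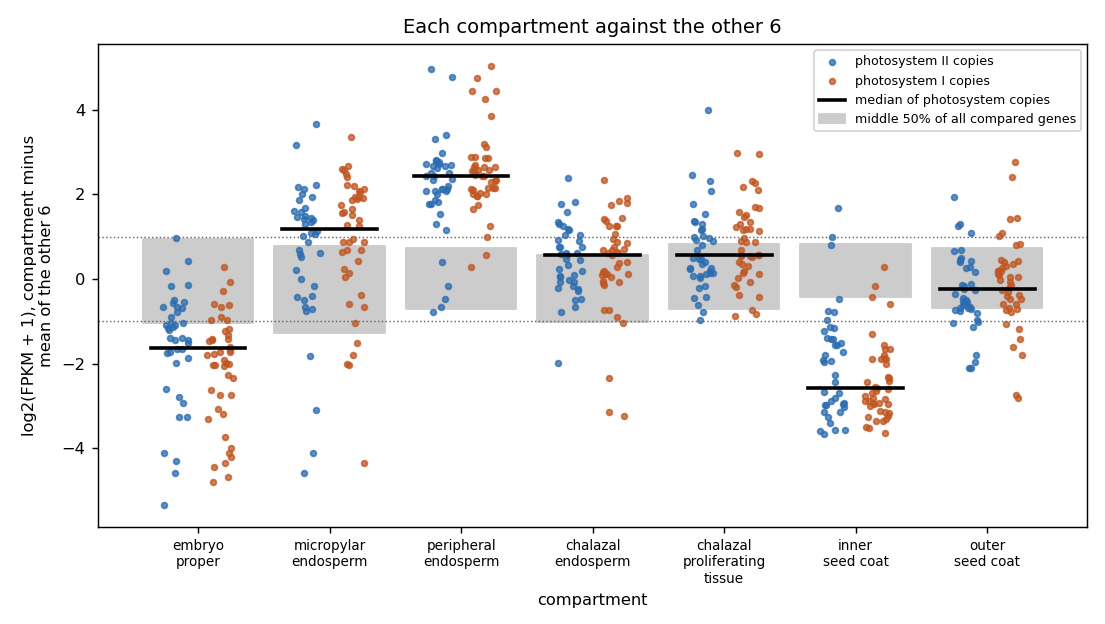
Difference in log2(FPKM + 1) between each compartment and the mean of the other 6, with 1 point per compared copy (blue photosystem II, orange photosystem I), a black line at the median of the 84 copies and a grey band over the middle 50% of all 54278 compared genes. Most copies lie above the band in the peripheral endosperm (median 2.43) and below it in the inner seed coat (median -2.57). In the outer seed coat the copies straddle it (median -0.24).

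In the micropylar endosperm 44 copies were higher and 9 lower than in the other 6 compartments, where 19.4% of all compared genes were higher and 18.2% lower, and the median difference was 1.19. PSBW BnaC04g41290D (3.65), PSAH2 BnaC03g69350D (3.35), PSBR BnaC02g25420D (3.16), PSAN BnaC02g42890D (2.68) and PSAG BnaC06g11040D (2.61) led. PSBP1 BnaC08g44890D, PSAF BnaA07g06900D, PSBR BnaC06g39450D and PSBW BnaA10g27910D were listed at 0 there. Compared directly with the peripheral endosperm, 1 copy was higher in the micropylar endosperm (PSAG BnaC06g11040D) and 37 were lower, against 19.3% and 19.2% of all compared genes, with a median of -0.86. With columns scaled to a common median, these counts became 0 and 71, and those against the other 6 compartments 20 higher and 15 lower. The micropylar column also held embryo markers at 142 FPKM, against 6 in the peripheral endosperm. By locus, 4 of the 7 reached 5 FPKM in the micropylar column, and DRN, FUS3 and WOX2 were listed at 0. LEC1 BnaC08g20060D was listed at 35 FPKM in that column and at 0 in the embryo proper. The part of embryo markers in these differences was not tested.

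The chalazal endosperm was lower than the peripheral endosperm for 68 copies and higher for 0, where 11.4% and 8.58% of all compared genes were so counted, and the median difference was -1.59. PSAH2 BnaA08g01590D (-4.86), PSAG BnaA05g13640D (-4.66), PSAH2 BnaC03g69350D (-4.13), PSBO2 BnaA01g19750D (-3.84) and PSAH1 BnaA01g28200D (-3.77) stood furthest apart. Against the other 6 compartments 22 copies (26.2%) were higher and 5 (5.95%) lower, beside 13.6% and 15.5% of all compared genes, with a median of 0.57. PSBP1 BnaC08g44890D (2.39) and PSAF BnaA07g06900D (2.33) were highest on the log scale, where columns listed at 0 weigh heavily, since their means were 62 against 58.8 and 52 against 44.3 FPKM. Lowest were PSAH2 BnaA08g01590D (-3.23) and PSAG BnaA05g13640D (-3.15). This direction hung on the scaling: with columns rescaled to a common sum 2 copies were higher and 25 lower, with a common median 15 were higher and 6 lower, and without the inner seed coat column 14 were higher and 9 lower.

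In the embryo proper 58 copies were lower and 0 higher than in the other 6 compartments, against 17.2% and 20.1% of all compared genes, with a median of -1.63. The lowest was PSBQA BnaC01g12690D at -5.33, followed by PSAH2 BnaC06g41070D (-4.79), PSAH2 BnaC03g69350D (-4.68), PSBP1 BnaC08g44890D (-4.59) and PSAO BnaC05g06070D (-4.45). All 5 were listed at 0 in the embryo proper, as were 11 of the 64 copies (17.2%) that reached 50 FPKM in a compartment. Of all genes at that level 28.8% were listed at 0 in the embryo proper, so the zeros were not more frequent among the photosystem copies. The highest relative levels belonged to PSBW BnaA04g17660D (0.97), PSBW BnaA10g27910D (0.41), PSAO BnaAnng28120D (0.29) and PSBP1 BnaA09g49810D (0.18), none past the rule. In the embryo proper these stood at 61, 7, 2 and 94 FPKM.

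The inner seed coat was lower than the other 6 compartments for 72 copies and higher for 0, where 6.99% of all compared genes were lower and 15.4% higher. The median difference was -2.57, against 0.21 for all compared genes. The lowest were PSBQ2 BnaC09g21870D (-3.67), PSAN BnaC03g50210D (-3.64), PSBR BnaAnng40550D (-3.60), PSBR BnaA07g20510D (-3.58) and PSBP1 BnaA08g28710D (-3.57). PSBQA BnaC01g12690D was the exception among well-expressed copies, at 37 FPKM in the inner seed coat and a difference of 0.79. By mean FPKM it too was lower there, at 37 against 47.3, the positive difference coming from the embryo proper value of 0. Against the outer seed coat alone, 61 copies were lower and 0 higher, against 9.03% and 11.7% of all compared genes, with a median of -2.03. PSAH2 BnaA08g01590D (-4.25), PSAH1 BnaA01g28200D (-4.09) and PSAF BnaA09g25260D (-3.56) differed most. At the level of loci all 18 were higher in the outer than in the inner seed coat, from 1.31-fold for PSBQA to 9.63-fold for PSAH2. The inner seed coat column also held the largest sum of the dying nucellus list, 38191 FPKM against at most 3237 in any other compartment. Nearly all of it came from a pair of DVPE copies. By copy, 6 of 11 were higher there than in the other 6 compartments, beside 8 of 11 in chalazal proliferating tissue. The outer seed coat markers also had their largest sum in inner seed coat. By copy, 7 of 26 were higher and 6 lower there than in outer seed coat. The part of both lists in the low photosystem values was not tested.

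In the outer seed coat the copies split in both directions: 9 copies were higher and 13 lower than in the other 6 compartments, with a background of 14.8% and 10.4% and a median of -0.24. Among copies past the rule, PSAH1 BnaA01g28200D (2.76), PSAH2 BnaA08g01590D (2.40), PSAH2 BnaC03g69350D (1.44) and PSAF BnaA07g06900D (1.43) were highest. The last pair were higher on the log scale only, with columns listed at 0 on the other side, since their means were 37 against 41.2 and 30 against 48 FPKM. The same held for PSBP1 BnaC08g44890D (32 against 63.8 FPKM) and PSAH2 BnaC06g41070D (32 against 38.5 FPKM), also counted as higher. PSAG BnaA06g00210D (-2.82), PSAG BnaC06g07480D (-2.74), PSBY BnaC06g26560D (-2.11), PSBR BnaAnng40550D (-2.10) and PSBW BnaC04g41290D (-1.98) were lowest. The split turned to 11 higher and 9 lower under quantile normalisation and to 20 higher and 7 lower with a common sum, while 6 were higher and 28 lower without the inner seed coat column.

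The chalazal proliferating tissue was the maternal compartment with the highest levels. By the rule of size 30 copies were higher and 0 lower than in the other 6 compartments, against 16.5% and 11.2% of all compared genes, with a median of 0.57. PSBR BnaC06g39450D (3.99), PSAH2 BnaA08g01590D (2.97), PSAH2 BnaC06g41070D (2.94), PSBR BnaA07g20510D (2.46) and PSAO BnaC08g43200D (2.32) led. The count was 18 higher and 4 lower without the inner seed coat column. Of the 18 loci, 15 had a higher sum here than in the outer seed coat and 10 a higher sum than in the chalazal endosperm, the filial tissue next to it. Endosperm markers summed to 2 FPKM in this column and chalazal endosperm markers to 0. How these marker sums bear on its photosystem values was not tested.

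When the 4 filial compartments were set against the 3 maternal ones, 40 copies were higher in filial tissue and 4 lower, where 10.1% and 16.9% of all compared genes were so counted, and the median difference was 0.98. The highest were PSAG BnaC06g07480D (2.60), PSAN BnaC02g42890D (2.14), PSAG BnaA06g00210D (2.14), PSBP1 BnaA08g28710D (2.04) and PSBP1 BnaA09g49810D (1.99). The 4 lower copies were PSBQA BnaC01g12690D (-1.42), PSAH2 BnaA08g01590D (-1.41), PSAH2 BnaC06g41070D (-1.37) and PSBP1 BnaC08g44890D (-1.01). For PSBP1 BnaC08g44890D and PSBQA BnaC01g12690D the sign comes from averaging logs over filial columns listed at 0, since their mean FPKM was higher in filial tissue (79.75 against 32, and 49.5 against 41). The filial excess rested largely on the inner seed coat: without that column 15 copies were higher and 9 lower and the median difference was 0.15. It also shrank to 23 higher and 6 lower with a common median and to 25 higher and 7 lower with a common sum. Filial tissue was not uniform, since it held both the highest compartment and the embryo proper, which was next to lowest.

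The ratio of photosystem I to photosystem II in summed FPKM, which does not depend on the overall scale of a column, was close to 1 in peripheral endosperm (0.985) and the micropylar endosperm (0.990). It was 0.896 in chalazal endosperm, 0.810 in chalazal proliferating tissue, 0.663 in inner seed coat and 0.627 in embryo proper, and 1.16 in outer seed coat. The whole seed stood at 0.856. With the highest copy of each locus only, the embryo proper and the inner seed coat kept the lower ratios (0.758 and 0.824) beside 1.11 in peripheral endosperm and 1.099 in outer seed coat. There is no replicate value against which to judge these gaps.

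Within the pairs of paralogs the balance was steady for PSBO and varied for PSBQ and PSAH. PSBO1 gave 89.1% to 97.6% of the PSBO sum in every column. PSBQA gave 14.3% of the PSBQ sum in micropylar endosperm, 15.3% in chalazal proliferating tissue, 22.0% in embryo proper, 25.8% in outer seed coat, 33.5% in peripheral endosperm, 37.4% in chalazal endosperm and 70.9% in inner seed coat. The inner seed coat share rests on small sums, 61 FPKM of PSBQA and 25 of PSBQ2. PSAH1 gave 69.8% of the PSAH sum in chalazal endosperm, 59.3% in peripheral endosperm, 58.6% in micropylar endosperm, 48.9% in inner seed coat, 36.5% in embryo proper, 32.7% in outer seed coat and 18.8% in chalazal proliferating tissue. PSAH1 was thus the larger part in all 3 endosperm regions and the smaller part in chalazal proliferating tissue and outer seed coat.

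**Figure D4:**
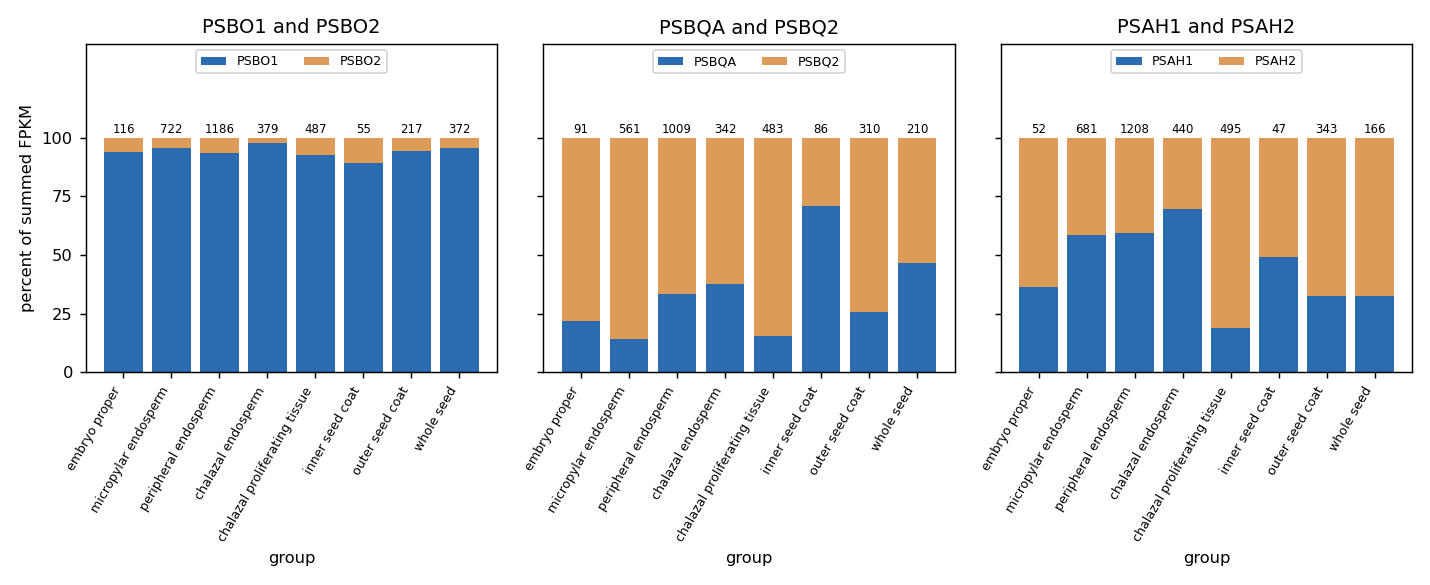
Share of each paralog in the summed FPKM of its pair (bars from 0 to 100%, 1 bar per group, the pair's summed FPKM written above each bar). PSBO1 makes up 89.1% or more in every group, PSBQA is the larger part in the inner seed coat (70.9%), and PSAH1 falls from 69.8% in the chalazal endosperm to 18.8% in the chalazal proliferating tissue.

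Brassica napus joins an A subgenome, from Brassica rapa, with a C subgenome, from Brassica oleracea, and the letter in each gene name gives the subgenome. The A copies supplied 49.1% of the summed photosystem FPKM in the peripheral endosperm, and between 46.1% (chalazal proliferating tissue) and 54.0% (outer seed coat) in the 7 compartments. In the peripheral endosperm 13 of the 18 loci lay between 40% and 60% A. The extremes were PSAK, with 10.3% from its 1 A copy, and PSBY, with 88.2% from its 3 A copies. Both kept their side in every column. Some loci moved between columns, among them PSBW, from 92.4% A in the embryo proper to 24.0% in the micropylar endosperm. PSBQA moved from 100% A in the embryo proper, on 20 FPKM, and 91.25% in the micropylar endosperm to 38.75% in the outer seed coat.

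Not every copy was expressed. In all, 9 copies were listed at 0 in every column, and 8 more stayed below 5 FPKM in every compartment, which left 78 copies at 5 FPKM or more in a compartment. Of the 9 silent copies 4 were PSAN, 3 PSBW, 1 PSBO1 and 1 PSAH1. On the C subgenome lay 8 of them, whereas the 78 expressed copies were 40 A and 38 C copies. A deposited length under 300 bases was given for 6 of the silent copies, all of them C copies. All 7 copies under 300 bases stayed below 5 FPKM, and the 78 expressed copies were 453 to 2175 bases long. Among all genes of the table, 69.1% of those under 300 bases and 29.1% of the longer ones were below 1 FPKM in every compartment. On chromosome C04 the silent PSBW copy BnaC04g41300D (42069394 to 42070479) lay 3179 bases from the expressed copy BnaC04g41290D (42065049 to 42066214). On C01 the near-silent PSBQ2 copy BnaC01g12660D, at most 3 FPKM, lay 7438 bases from PSBQA BnaC01g12690D, which reached 139 FPKM.

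The whole seed values lay inside the range of the 7 compartments for 82 of the 84 copies. By the rule of size 6 copies were higher and 14 lower than the mean of the compartments, against 16.1% and 9.6% of all compared genes, with a median of 0.02. The lowest was PSAF BnaA07g06900D (-2.73), at 1 FPKM in the whole seed against 185 in the peripheral endosperm. It was followed by PSBW BnaC04g13890D (-2.39) and PSAN BnaC09g06210D (-2.21), and the highest past the rule was PSAN BnaA02g34030D (2.08). Without the inner seed coat column 3 copies were higher and 22 lower, and with a common sum 24 were higher and 7 lower. Endosperm markers summed to 4 FPKM in that column, and how this bears on its photosystem values was not tested.

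The other lists of nuclear photosynthesis genes also had their highest sum in the peripheral endosperm, but the order of the remaining compartments differed between lists. For antenna genes the margin was small, at 10842 FPKM against 10171 in micropylar endosperm. Of 67 antenna copies, 54 were higher in micropylar endosperm than in the other 6 compartments and 3 lower, beside 19.4% and 18.2% of all compared genes. Greening regulators had their highest sum in chalazal endosperm. The plastid ATP synthase list was lowest in embryo proper (10.97% of its peripheral sum, against 22.1% in inner seed coat), the assembly and repair list in chalazal proliferating tissue (36.6%), and the chlorophyll synthesis list stood higher in outer seed coat (32.7%) than in chalazal endosperm (31.8%). Further nuclear photosystem subunits (PSBX, PSBTN, PSBS and others) were higher in the peripheral endosperm than in the other 6 compartments for 16 of 16 compared copies, Calvin cycle genes for 80 of 90, antenna genes for 56 of 67, chlorophyll synthesis genes for 44 of 50, electron transport genes for 33 of 41 and plastid ATP synthase genes for 10 of 15, beside 13.7% of all compared genes. Photosystem assembly and repair genes were higher for 23 of 39 and greening regulators for 15 of 32. Import proteins of the plastid envelope were higher for 3 of 24, plastid fatty acid synthesis genes for 7 of 48 and housekeeping genes for 8 of 36, the first pair of counts being near that background. In the inner seed coat antenna genes were lower for 59 of 67 copies, plastid fatty acid synthesis genes for 5 of 48 and import proteins for 0 of 24, beside 6.99% of all compared genes. In the chalazal proliferating tissue the summed photosystem subunits stood at 45.4% of their peripheral level, while the Calvin cycle list stood at 10.1% of it. The leading copies of the photosynthesis lists stood at 302 FPKM in peripheral endosperm and 13 in inner seed coat for PSBX BnaA08g29910D, 475 and 35 for LHCB1.3 BnaA04g20150D, 472 and 37 for FD2 BnaA09g13970D, 279 and 51 for ATPG BnaA01g04740D, 910 and 193 for RBCS1B BnaC04g30870D and 97 and 6 for CRD1 BnaA07g17040D. The copies of LHCB1.3 and RBCS1B were highest in micropylar endosperm instead, at 1059 and 1502 FPKM. For assembly, protein import, fatty acid synthesis and housekeeping the leading copies stood, in the same order, at 47 and 36 FPKM for VIPP1 BnaA02g12030D, 59 and 43 for TOC33 BnaA09g51430D, 23 and 23 for BCCP1 BnaAnng22560D and 221 and 446 for GAPC1 BnaA06g08510D.

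**Figure D5:**
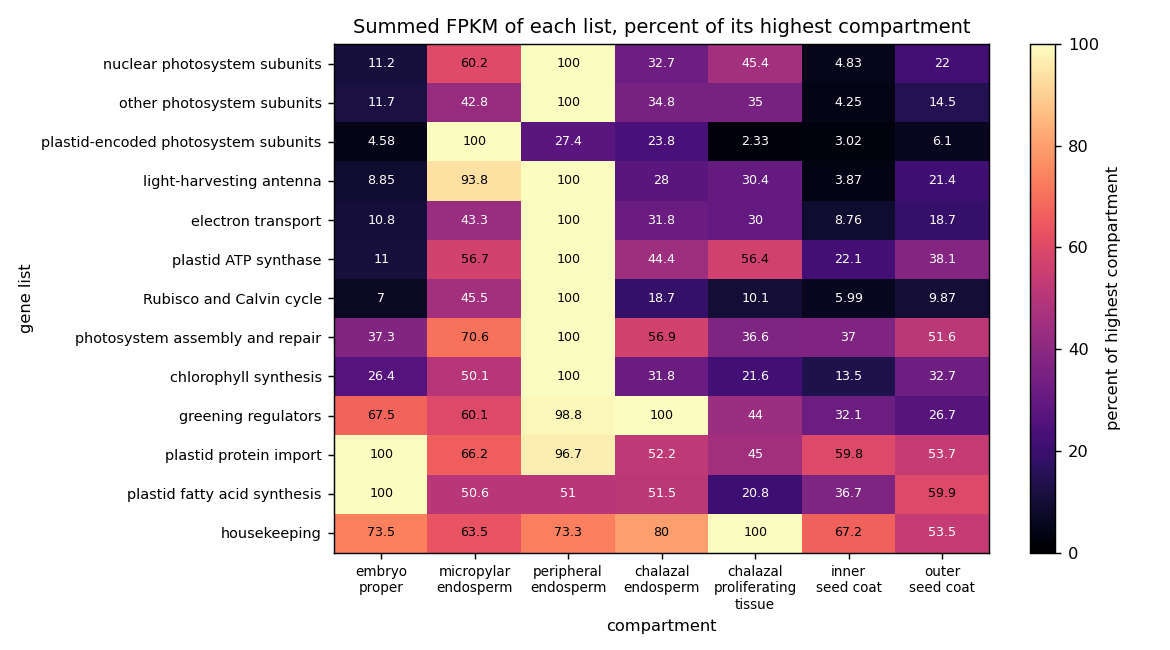
Summed FPKM of 13 gene lists in the 7 compartments, each as a percent of the list's own highest compartment (number and colour). The nuclear photosystem subunits and most other photosynthesis lists peak in the peripheral endosperm, with the photosystem subunits at 4.83% in the inner seed coat, whereas the plastid-encoded photosystem subunits peak in the micropylar endosperm.

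Genes of the table whose best match was a plastid-encoded photosystem subunit had another order. They summed to 33896 FPKM in micropylar endosperm, 9285 in peripheral endosperm, 8057 in chalazal endosperm and 790 in chalazal proliferating tissue, and were listed at 0 in whole seed. Nearly all of it came from psbA BnaC06g14690D and psaC BnaC09g26840D, at 16513 and 16623 FPKM in micropylar endosperm. These rows carry names of nuclear chromosomes, and whether their fragments came from the plastid or from nuclear insertions cannot be told apart.

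Among known regulators of greening, GLK1 and GLK2, which in Arabidopsis activate photosystem and antenna genes, were low. GLK1 BnaA07g00410D was listed at 0, 0, 10, 14, 0, 0, 0 and 0 FPKM and GLK2 BnaA06g36250D at 3, 8, 15, 16, 0, 0, 0 and 0 FPKM. No copy of either reached 1 FPKM in any maternal compartment. There the photosystem subunits summed to 6435 FPKM in chalazal proliferating tissue, 3117 in outer seed coat and 685 in inner seed coat. How GLK levels bear on the photosystem levels was not tested. HY5 BnaC09g45380D, a light-signalling factor, was highest in the chalazal endosperm, at 5, 19, 47, 65, 31, 9, 3 and 2 FPKM.

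The genes outside the list whose profile over the 7 compartments was most like the mean of the photosystem copies were ranked by Pearson r of log2(FPKM + 1) among 9163 genes that reached 50 FPKM somewhere. The 10 nearest were copies of GAPA2 (BnaA09g46780D, r = 0.98), LHCA1 (BnaC06g15470D), CHLH (BnaA03g04440D and BnaC03g05980D), ATPC1 (BnaA09g20320D and BnaC03g29960D), PETC (BnaC03g30230D), an LHCB2 gene (BnaA02g29010D) and FD2 (BnaA09g13970D and BnaCnng11890D). With a pseudocount of 0.1 in place of 1, 7 of these 10 were again among the 10 nearest. All 10 stand in the photosynthesis lists, as do 41 of the 50 nearest (82%), against 1.92% of the genes ranked. The 7 points are combined columns that share their libraries between all genes, and the r values are a description. Among the 64 photosystem copies at 50 FPKM or more, r with their own mean profile had a median of 0.914, and 36 copies reached 0.9.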

How the data were processed

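RNA of 7 seed compartments and whole seeds was profiled by the authors. An Ambion RNA reagent and a NuGen Ultralow kit were used, per the labels' protocols. Trimmomatic 0.36, HISAT2 and Cufflinks are named, per the submitters' processing notes, and build, annotation and settings are not given in the sources used here. The deposited values are a score: FPKM that the authors rounded to whole numbers (100% of values whole), 1 column per group, per the file headers; that of whole seeds gives no unit. The deposited gene lengths, in bases, are of other unit. How libraries were combined is not given. The table also holds 1 FPKM column that matched no sample and was not used, and 593 genes without compartment values were left out.

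Planned limma tests, replicate omission and a replicate block could not be run with 1 combined column per group, so 12 comparisons used the rule of size. Its code was tested on simulated data. The photosystem loci and the 18 lists were chosen with earlier results of these data known. Named were the leading copy of each locus, copies at 5 FPKM or more not highest in the peripheral endosperm, and up to 5 of the highest or lowest differences and the leading copy of each other list; PSBW BnaA04g17660D, GLK1 and GLK2 were chosen after their values were seen. Promoter motifs and sequences were not analysed here. Alternatives were 0.1 as pseudocount, all genes kept or a stricter 1 of 5 FPKM in 2 columns, columns quantile normalised, brought to a common median, or brought to a common sum that leaves out rRNA and organelle genes, no floor of 5 FPKM, omission of the micropylar column and, added after seeing the data, of the inner seed coat column. Tools were Python 3.11.15 with pandas 2.3.3, numpy 2.4.6 and, for figures, matplotlib 3.10.9.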

Additional observations from a re-analysis of the deposited data

How the results depend on the processing

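No paired analysis was possible because each group has 1 combined column, and omission of replicates could not be run for the same reason. Of the main counts and shares under an alternative, 164 stayed (counts within 1.5 times, shares unchanged) and 83 moved. Low values are coarse because FPKM were rounded, and unknown depth limits copies below 5 FPKM.

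With a pseudocount of 0.1, copies lower in filial tissue numbered 7, copies higher in the embryo proper 2, lower in the chalazal proliferating tissue 1, higher in the inner seed coat 1 and higher in the whole seed 13 (13 lower). Without the floor of 5 FPKM, 2 were higher in the inner seed coat, 5 higher in the inner than the outer coat and 3 higher in the micropylar than the peripheral endosperm. Without the micropylar column, 5 were higher and 8 lower in outer seed coat and 1 lower in the chalazal proliferating tissue. Without the inner seed coat column, an alternative chosen after seeing the data, counts were 15 higher and 9 lower for filial tissue, 14 and 9 for the chalazal endosperm, 18 and 4 for the chalazal proliferating tissue, 6 and 28 for the outer seed coat, and 3 and 22 for the whole seed, whose median turned to -0.34.

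Quantile normalisation gave 1 copy higher in the embryo proper, 1 lower in the chalazal proliferating tissue, 2 higher in the micropylar than the peripheral endosperm, 10 higher and 11 lower in the whole seed, and a median of 0.049 in the outer seed coat. A common median gave 23 higher in filial tissue, 20 higher and 15 lower in the micropylar endosperm, 0 higher and 71 lower there than in the peripheral endosperm, and 1 higher in the inner seed coat. It moved the median of all compared genes by -0.29 for filial tissue, -0.27 for the micropylar and 0.35 for the peripheral endosperm. A common sum gave 25 higher and 7 lower in filial tissue, 2 and 25 in the chalazal endosperm (median -0.57), 20 and 7 in the outer seed coat (median 0.42), 24 and 7 in the whole seed, 1 higher in the embryo proper and in the inner seed coat, 1 lower in the chalazal proliferating tissue and 3 higher in the micropylar than the peripheral endosperm. The cause was not tested beyond the scale factors themselves.

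As a percent of the peripheral endosperm under quantile normalisation, common median and common sum, the summed level was 14.5, 6.40 and 16.7 in the embryo proper, 71.0, 26.8 and 75.3 in the micropylar endosperm, 32.6, 21.8 and 18.3 in the chalazal endosperm, 30.2, 17.6 and 38.2 in outer seed coat, and 31.2, 16.8 and 39.1 in whole seeds. The chalazal proliferating tissue stood at 46.4 (quantile) and 47.5 (sum) and the inner seed coat at 5.37 and 6.81. With the highest copy of each locus only and then with quantile normalisation, the photosystem ratio was 1.11 and 0.989 in the peripheral endosperm, 1.099 and 1.12 in outer seed coat, 0.758 and 0.607 in the embryo proper and 0.824 and 0.622 in the inner seed coat. In the same order the A share was 49.7% and 49.1% in the peripheral endosperm and 47.5% and 48.2% over the 7 compartments. PSBO1 gave 88.8% and 92.4% and PSBQA 37.5% and 32.6% in the peripheral endosperm, PSBQA 70.6% and 73.0% in the inner seed coat, and PSAH1 54.2% and 59.4% in the peripheral endosperm and 20% and 19.4% in the chalazal proliferating tissue.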
